A study of Homo sapiens with 28 samples.

Results

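Complex I (NADH dehydrogenase) and complex II (succinate dehydrogenase) are the entry points of electrons into the mitochondrial respiratory chain. Their nuclear-encoded genes were followed in 4 human lines of multiple myeloma, a cancer of antibody-secreting plasma cells, through treatment with arsenic compounds. Genes were taken by symbol, where it begins with NDUFA, NDUFB, NDUFC, NDUFS or NDUFV or equals SDHA, SDHB, SDHC or SDHD, and only from array probe sets that carry a single symbol. This gave 47 genes of 19775, each read from the probe set with the highest mean signal. All 47 exceeded the filter on low signal that left 15437 genes for testing. Among them 36 encode subunits. Another 8 (NDUFAF1 to NDUFAF8) encode assembly factors, which build complex I without remaining in it. The last 3 (NDUFB2-AS1, NDUFV1-DT and NDUFV2-AS1) are non-coding neighbours of subunit genes that share their prefix. NDUFC2, NDUFS5 and NDUFS8 are read by probe sets with several symbols and were not taken. SDHB was not analysed here.

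Complex I takes electrons from NADH through a flavin and a chain of iron-sulfur clusters to ubiquinone, and pumps protons across the inner membrane as it does so. Its conserved catalytic core includes NDUFS and NDUFV subunits, while most NDUFA, NDUFB and NDUFC subunits are accessory proteins around that core. Complex II oxidises succinate, which also makes it an enzyme of the citric acid cycle. SDHA carries its flavin and active site, and SDHC and SDHD anchor it in the membrane. Inorganic and organic arsenicals bind thiol groups of proteins, and mitochondria are a known site of their action in myeloma and leukaemia cells.

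The lines were U266, MM.1s, KMS11 and 8226/S, with 7 arrays each and 28 Affymetrix arrays in all. Arsenic trioxide (ATO), an inorganic arsenical, was given at 2 µM for 6, 24 or 48 h. Darinaparsin (DAR), an organic arsenical in which dimethylated arsenic is joined to glutathione, was given for 6 or 24 h. Its dose was 4 µM for U266, 2 µM for 8226/S and 3 µM for the other lines. Every line also has an untreated array numbered control 1 and another numbered control 2, so each of the 7 groups holds 4 arrays, 1 for each line. ATO arrays were set against control 2 and DAR arrays against control 1 of the same line. Untreated cells were sampled at 0 h only, so hours in culture and treatment cannot be told apart. Each line stands once in a group, and the labels name no separate cultures. The p-values of mean changes therefore rest on the spread from line to line. That spread is 1 estimate per gene from all 28 arrays, moderated by limma. The SE of a gene is thus the same in every comparison with control. It does not show how far the 4 lines differ in a single comparison.

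Signals are deposited intensities scaled to a common trimmed mean near 500. The median signal per array was 65.5 to 108.7 on the 12 arrays of control 1 and DAR and 110.9 to 147.3 on the 16 arrays of control 2 and ATO. This division into 2 array sets was found in the values and is not in the labels. The array of 8226/S after 6 h of DAR has the highest median of its set, 108.7. Plasma cell markers were well expressed: SDC1, TNFRSF17, IRF4, PRDM1 and XBP1 exceeded the array median on 28 of 28 arrays, MZB1 on 26 and CD38 on 17. Of 9 markers of other blood cells, CD14, NKG7 and PPBP exceeded it on 0 arrays, CD3D on 2 and the remaining 5 on 11 to 26. The summed signal of those 9 ran from 794 to 1341 in control 1, 674 to 1383 after DAR, 1656 to 2688 in control 2 and 1408 to 3302 after ATO.

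Promoter windows are printed for 4 subunit genes called in comparisons of treated arrays with control. SDHA and NDUFV2 were called lower, and NDUFA1 and NDUFA13 higher. Each line holds the 250 bases before the RefSeq transcription start in build GRCh38.p14, from 5′ to 3′ on the strand of the gene, which is the + strand for all 4. The windows are chr5:218070-218319 for SDHA, chr18:9102449-9102698 for NDUFV2, chrX:119871582-119871831 for NDUFA1 and chr19:19515975-19516224 for NDUFA13. Capitals mark matches on either strand to the motif of NRF1, a transcription factor of respiratory genes (GCGC, any base, then TGCGC), or to CCGGAAGT, a motif of ETS factors.
SDHA: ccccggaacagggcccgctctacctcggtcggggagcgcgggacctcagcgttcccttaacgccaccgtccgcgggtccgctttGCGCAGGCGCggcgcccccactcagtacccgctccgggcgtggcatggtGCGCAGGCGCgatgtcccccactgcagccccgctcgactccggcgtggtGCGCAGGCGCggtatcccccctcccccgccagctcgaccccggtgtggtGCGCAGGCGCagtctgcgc
NDUFV2: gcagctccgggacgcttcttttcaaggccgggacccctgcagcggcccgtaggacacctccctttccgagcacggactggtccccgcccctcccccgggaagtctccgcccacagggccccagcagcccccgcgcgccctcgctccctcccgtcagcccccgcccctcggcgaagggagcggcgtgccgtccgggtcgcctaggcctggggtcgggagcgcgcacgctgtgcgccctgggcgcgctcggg
NDUFA1: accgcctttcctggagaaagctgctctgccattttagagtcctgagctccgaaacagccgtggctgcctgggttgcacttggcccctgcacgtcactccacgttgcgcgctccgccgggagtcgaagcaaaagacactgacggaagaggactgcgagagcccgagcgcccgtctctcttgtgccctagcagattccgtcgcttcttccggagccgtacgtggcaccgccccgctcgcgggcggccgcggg
NDUFA13: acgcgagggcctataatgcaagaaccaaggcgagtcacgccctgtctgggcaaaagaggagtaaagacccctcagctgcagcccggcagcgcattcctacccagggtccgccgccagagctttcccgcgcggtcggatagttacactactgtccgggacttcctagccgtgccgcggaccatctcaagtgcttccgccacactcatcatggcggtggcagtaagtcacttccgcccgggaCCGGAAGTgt
The SDHA window holds 4 NRF1 matches, which begin 166, 117, 68 and 19 bases before the start. NDUFA13 holds 1 ETS match, from 10 to 3 bases before its start, and the windows of NDUFV2 and NDUFA1 hold neither motif. Windows of this length were found for 43 of the 47 genes. The NRF1 motif lies in 7 of these 43 (16.3%) and in 6.20% of all 27305 genes with a window, and the ETS motif in 3 (6.98%) against 4.13%. The antioxidant response motif TGACNNNGC lies in 7 (16.3%) against 13.2%, and the cyclic AMP response motif TGACGTCA in 2 (4.65%) against 2.03%. These are matches of letters, not measured binding.

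Before treatment the lines differed in many of these genes, and U266 was most often the lowest. An F test of line over the 8 control arrays, with the control number as a term, called 34 of 47 genes at an adjusted p under 0.05 (limma, Benjamini-Hochberg over 15437 genes). The same test called 51.7% of all genes. The median range over lines was 0.846 on the log2 scale for these genes and 1.03 for all genes. Among the 34, the lowest line was U266 for 20, MM.1s for 6, KMS11 for 4 and 8226/S for 4. The highest was KMS11 for 16, 8226/S for 13 and MM.1s for 5, and U266 was highest for 0. The same counts over all genes are not given here. Whether U266 is lowest more often for these genes than for others was not tested. In bulk RNA, fewer expressing cells and less RNA per cell cannot be told apart.

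SDHA, the catalytic flavoprotein of complex II, had the widest range, 2.60 log2 units (adjusted p = 1.54e-06). Its mean control signal was 1339 in U266, 5546 in MM.1s, 8296 in KMS11 and 4960 in 8226/S. U266 therefore stood well below the other lines, on both of its controls. NDUFAF4, an assembly factor that acts with NDUFAF3, followed with a range of 2.57, from 844 in U266 to 4658 in KMS11, 3925 in 8226/S and 5219 in MM.1s. SDHD, a membrane anchor of complex II, ranged over 1.42 log2 units, from 2748 in U266 to 7425 in 8226/S. SDHC, the other anchor, ranged over 0.49, with an adjusted p of 0.0902. Of the core subunits, NDUFV1, which binds NADH and the flavin, had the widest range at 1.31, from 3976 in U266 to 9921 in 8226/S. NDUFV2, its iron-sulfur partner, separated U266 at 10390 from the other lines at 18254 to 18340. NDUFS3 ranged over 0.29 (adjusted p = 0.246), and the accessory subunit NDUFA6 over 0.12 (adjusted p = 0.825), the narrowest of the 47.

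**Figure D1:**
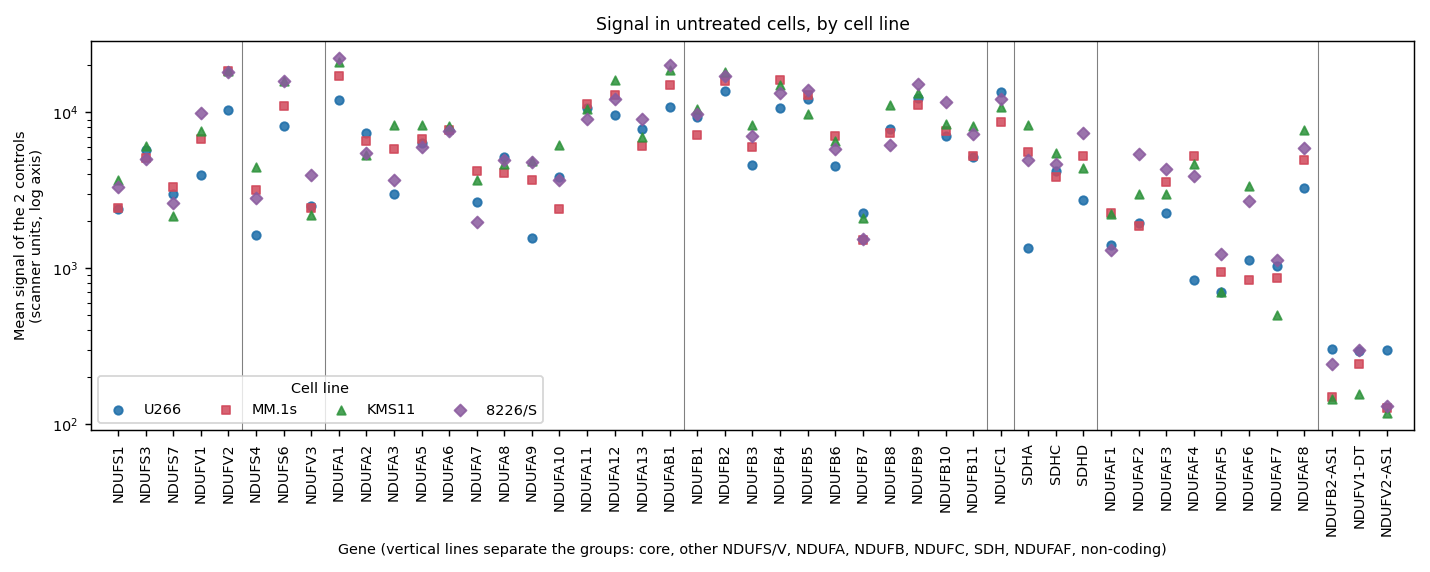
Mean signal of the 2 untreated arrays of each line (log axis, scanner units) for the 47 genes, with vertical lines between gene groups; each point is 1 line. U266 lies lowest for SDHA (1339), NDUFAF4 (844) and NDUFV1 (3976), and signals of different genes are not comparable because they come from different probes.

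The untreated arrays also differed by control number, in every line and mostly in one direction. Control 2 was below control 1 on average for 42 of 47 genes and in 4 of 4 lines for 37, as for 20.9% of all genes. At an adjusted p under 0.05 it was lower for 34 genes, where 16.8% of all genes were, and higher for 1, where 28.2% of all genes were. The median difference was -0.59 log2 units for these genes and 0.21 for all genes. NDUFB7, an accessory subunit of the membrane arm, had the largest negative difference, with signals of 3541, 2244, 3291 and 2400 in control 1 of U266, MM.1s, KMS11 and 8226/S. In control 2 of the same lines it read 956, 784, 904 and 703, a mean difference of -1.73. NDUFA8 differed by -1.48 and the assembly factor NDUFAF8 by -1.42. The 1 gene that was called higher is NDUFV1-DT, a non-coding transcript, with a mean difference of 2.81, the largest of the 47 in size. It read 55, 16, 11 and 103 in control 1 and 532, 470, 301 and 491 in control 2. It exceeded the array median on 19 of 28 arrays, among them every control 2 and ATO array. It thus passed the filter on low signal only through the set where it is high, so its call is not independent of the filter. Its control 1 signals are near the floor, and the size of its difference is uncertain.

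Quantile normalization left 41 of 47 genes lower in control 2, with a median of -0.36 against 0.024 for all genes. Centring each array on its median left 45 lower, with -1.12 against -0.31. Of the 47 probe sets, 30 belong to the tenth with the highest mean signal, 1544 probe sets whose median difference was -0.35 as deposited and -0.084 after quantile normalization. The sets also differed in the log2 ratio of the 3′ to the 5′ probe set of ACTB, a measure of RNA integrity and labelling. It was 0.361 to 1.13 in the set of control 1 and DAR and 0.048 to 0.340 in the set of control 2 and ATO. The ratio also differed within the set of control 1 and DAR. In U266, MM.1s, KMS11 and 8226/S it was 0.924, 0.795, 0.774 and 0.454 in control 1. At 6 h of DAR it was 0.607, 0.488, 0.361 and 0.401, lower in every line. At 24 h it was 1.13, 0.991, 0.754 and 0.920, higher in every line but KMS11. The same ratio of GAPDH overlapped between the sets, at -0.078 to 0.208 with control 1 and DAR and -0.217 to -0.046 with control 2 and ATO. In the same order of lines it was 0.107, 0.037, -0.078 and -0.025 in control 1. At 6 h of DAR it was 0.086, -0.050, -0.070 and -0.032, not lower in KMS11. The part of these properties in the control difference, and of these ratios in the DAR changes, was not tested. Each treatment was read within its own set.

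**Figure D2:**
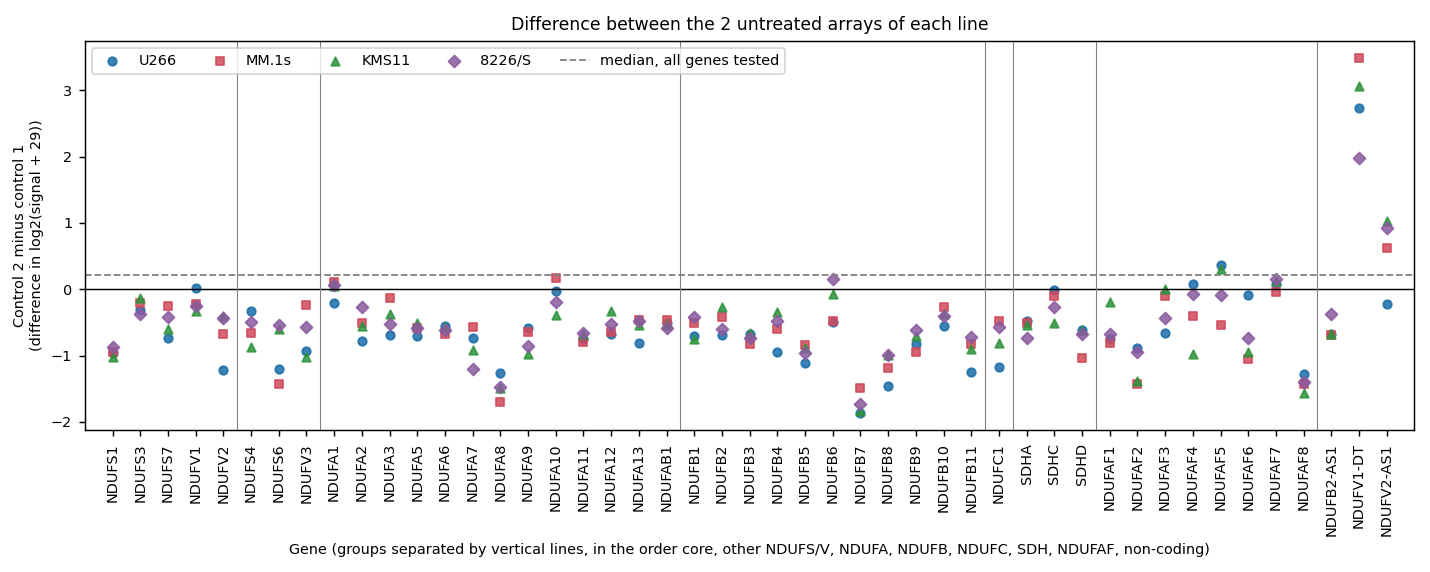
Control 2 minus control 1 in log2(signal + 29) for each line (points) and each of the 47 genes, with the median of all tested genes as a dashed line at 0.21. Most points lie below 0, as for NDUFB7 at -1.48 to -1.86, and NDUFV1-DT lies at 1.98 to 3.48.

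At 6 h of ATO no gene of the 47 changed at an adjusted p under 0.05. The same test called 3.78% of all genes higher and 2.64% lower, and 9 of the 47 had an unadjusted p under 0.05, as did 2950 of all 15437 genes. The median change was -0.029, and that of all genes was near 0. Members with the largest negative values were SDHA at -0.37 ± 0.149 (SE, n = 4 lines, adjusted p = 0.159), the assembly factor NDUFAF3 at -0.35 (0.0524), NDUFC1 at -0.31 (0.130), NDUFA8 at -0.29 (0.0842) and NDUFA7 at -0.28 (0.248). The largest positive values were NDUFV2-AS1 at 0.33, NDUFB2-AS1 at 0.24, NDUFB9 at 0.21, NDUFV1-DT at 0.16 and NDUFAF6 at 0.16, with adjusted p-values from 0.159 to 0.889. Among core subunits the means were -0.24 for NDUFV2, -0.24 for NDUFS7, -0.15 for NDUFV1, 0.060 for NDUFS3 and 0.12 for NDUFS1, and the anchors SDHC and SDHD stood at 0.0060 and -0.030. Changes are differences in log2(signal + 29), an offset that makes changes of dim probe sets look smaller.

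At 24 h of ATO 3 genes changed: NDUFB5 rose, and NDUFV2 and SDHA fell. That is 1 of 47 higher, with 2.73% of all genes called higher, and 2 of 47 lower, with 2.27% called lower. The median was -0.035 against 0.024 over all genes. NDUFB5, an accessory subunit of the membrane arm, rose by 0.29 ± 0.074 (SE, n = 4 lines, adjusted p = 0.0204). NDUFV2 fell by 0.37 ± 0.089 (adjusted p = 0.0173), and SDHA fell by 0.57 ± 0.149, to 0.674 of control (adjusted p = 0.0261). NDUFB3, another membrane-arm subunit, had a larger mean of 0.43 but did not pass (adjusted p = 0.0966). Its change was 1.36 in MM.1s, 0.42 in U266, 0.039 in 8226/S and -0.094 in KMS11. The remaining large values were NDUFB2-AS1 at 0.41, SDHC at 0.24 and NDUFAF7 at 0.20 on the positive side, and NDUFA7 at -0.38, NDUFC1 at -0.29 and NDUFV1-DT at -0.24 on the negative side, with adjusted p-values from 0.0993 to 0.814. The other core subunits lay between -0.20 for NDUFV1 and 0.081 for NDUFS1. The calls of all 3 genes were lost without U266, without MM.1s or without KMS11, but not without 8226/S. Without U266 the adjusted p was 0.147 for NDUFB5, 0.0568 for NDUFV2 and 0.0931 for SDHA. For the same genes it was 0.155, 0.177 and 0.200 without MM.1s and 0.116, 0.155 and 0.158 without KMS11. Of all genes, 422 were called higher and 350 lower with 4 lines. These became 157 and 149 without U266, 109 and 96 without MM.1s and 106 and 99 without KMS11. Without 8226/S they were 514 and 437.

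At 48 h of ATO 7 genes changed. The accessory subunits NDUFB5, NDUFB8, NDUFA1 and NDUFA13 rose, 4 of 47 where 6.35% of all genes did. NDUFV2, SDHA and NDUFAF6 fell, 3 of 47 where 5.38% of all genes did. The median was 0.050 against 0.056 over all genes, and 17 of the 47 had an unadjusted p under 0.05, as did 3784 of all 15437 genes. By role, 2 of 13 NDUFA and NDUFAB subunits and 2 of 11 NDUFB subunits rose and 0 of either fell. Of 5 core subunits 1 fell, of 3 complex II subunits 1 fell, and of 8 assembly factors 1 fell. Over all genes the calls divided into 981 higher and 831 lower, but 491 and 914 with arrays centred on their medians. For these genes the 4 higher and 3 lower became 1 and 3 with median centring and 9 and 3 with quantile normalization.

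NDUFB5 had the smallest adjusted p of any of these genes under ATO (0.00082), with a rise of 0.41 ± 0.074 at 48 h, or 1.32-fold. From control 2 through 6, 24 and 48 h its signal was 7682, 7212, 9766 and 9930 in U266. In MM.1s it was 9278, 8516, 12218 and 13793. In KMS11 it was 6848, 6677, 7929 and 9119, and in 8226/S it was 9482, 9427, 11096 and 11473. Every line was therefore slightly below its control at 6 h and above it at 24 and 48 h, although the 4 controls (6848 to 9482) and the 48 h arrays (9119 to 13793) overlap as groups. The rise at 48 h was still called when any one line was left out (adjusted p from 0.00263 to 0.0222). With the controls of both sets pooled the change was -0.067, where control 1 of each line reads higher (12653 to 18514).

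NDUFB8, another membrane-arm subunit, whose protein is widely used as a marker of assembled complex I, rose by 0.38 ± 0.099 (adjusted p = 0.0141). Its signal in control 2 and at 48 h was 4136 and 5436 in U266, 4462 and 6919 in MM.1s, 7498 and 9785 in KMS11, and 4105 and 4427 in 8226/S. The smallest change was thus in 8226/S (0.11) and the largest in MM.1s (0.63). A second bright probe set of the gene gave 0.44. NDUFA1, a small membrane-arm subunit encoded on the X chromosome, rose by 0.32 ± 0.086 (adjusted p = 0.0163). It went from 11188 to 14225 in U266, 17651 to 22797 in MM.1s, 21370 to 27209 in KMS11 and 22653 to 26379 in 8226/S. The changes were 0.22 in 8226/S and 0.35 to 0.37 in the other lines, on baselines that differ between U266 and the rest. NDUFA13, also known as GRIM-19 for its part in cell death induced by interferon and retinoic acid, rose by 0.29 ± 0.088 (adjusted p = 0.0336). Its signal went from 5680 to 6319 in U266, 5091 to 7291 in MM.1s, 5615 to 6883 in KMS11 and 7613 to 8706 in 8226/S.

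Calls of NDUFB8, NDUFA1 and NDUFA13 were lost without some of the lines, although their mean changes stayed positive. With 1 line left out the means were 0.29 to 0.47 for NDUFB8, 0.30 to 0.35 for NDUFA1 and 0.21 to 0.33 for NDUFA13. Calls higher over all genes also moved, from 981 to 616 without U266, 397 without MM.1s, 282 without KMS11 and 1056 without 8226/S. Without U266 the adjusted p was 0.0821 for NDUFB8 and 0.0593 for NDUFA13. Without MM.1s it was 0.147 for NDUFB8, 0.124 for NDUFA1 and 0.250 for NDUFA13. Without KMS11 it was 0.0942, 0.0946 and 0.174 for the same genes, and without 8226/S it was 0.0555 for NDUFA13. With median centring all 3 missed the threshold as well (0.0941 for NDUFB8, 0.177 for NDUFA1, 0.320 for NDUFA13). With controls pooled, NDUFB8 changed by -0.20 and NDUFA13 by 0.0018.

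Among the 48 h values that did not pass, the largest positive ones were NDUFB3 at 0.40 (adjusted p = 0.0828), NDUFV2-AS1 at 0.36 (0.445) and the assembly factor NDUFAF1 at 0.34 (0.102). The largest negative ones were NDUFA7 at -0.33 (0.109) and NDUFC1 at -0.29 (0.113). A second, dimmer probe set of NDUFC1 gave 0.26.

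NDUFV2 carries an iron-sulfur cluster in the NADH-binding end of complex I. It fell by 0.39 ± 0.089 at 48 h of ATO (adjusted p = 0.0059). Its signal in control 2 and at 6, 24 and 48 h was 6224, 6013, 5261 and 5106 in U266, and 14126, 10174, 9181 and 9928 in MM.1s. In KMS11 it was 15811, 13295, 11952 and 11732, and in 8226/S it was 15490, 13410, 13472 and 12291. All 12 treated arrays lay below their own control, and U266 lay below every other line throughout. The change at 6 h was -0.24 (adjusted p = 0.112). Without KMS11 the adjusted p at 48 h was 0.0745. The pooled change at 48 h was -0.73. Its core partners at 48 h were NDUFV1 at -0.25, NDUFS3 at -0.093, NDUFS7 at 0.050 and NDUFS1 at 0.17, with 0 of the 4 called.

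SDHA fell by 0.46 ± 0.149 at 48 h of ATO (adjusted p = 0.0454), a mean over unlike lines. In control 2 and at 6, 24 and 48 h it read 1111, 833, 732 and 1074 in U266. It read 4578, 2703, 2630 and 3013 in MM.1s and 6776, 4695, 3880 and 3063 in KMS11. In 8226/S it read 3727, 4297, 3470 and 3583. KMS11 was lower at each time, down to a change of -1.14, and MM.1s lay at -0.60 to -0.79. U266 was at -0.40 and -0.58 and then at -0.048, and 8226/S lay between 0.20 and -0.10. Without KMS11 the mean change was -0.23 (adjusted p = 0.517), and without MM.1s it was -0.41 (0.207). Leaving the filter out gave an adjusted p of 0.0566, and averaging probe sets 0.0549. The only SDHA probe set is of a kind that may hybridise to related sequences, so its signal may include near-identical copies of the gene. The anchors SDHC (0.28, called in no comparison) and SDHD (0.21) had positive means at 48 h and were higher in 4 of 4 lines.

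NDUFAF6, an assembly factor of complex I, fell by 0.35 ± 0.111 at 48 h of ATO (adjusted p = 0.0390). In control 2 and at 6, 24 and 48 h it read 1100, 1300, 876 and 867 in U266, and 539, 647, 445 and 387 in MM.1s. It read 2302, 2221, 2144 and 1872 in KMS11 and 2032, 2343, 2057 and 1595 in 8226/S. At 6 h it was above control in 3 lines, and at 48 h it was below control in all 4, by 0.29 to 0.45. The call was lost without any one of the lines (adjusted p = 0.0990 without U266, 0.155 without MM.1s, 0.161 without KMS11 and 0.103 without 8226/S). The mean change stayed between -0.32 and -0.37 in these fits. A second, dimmer probe set of the gene gave -0.055.

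**Figure D3:**
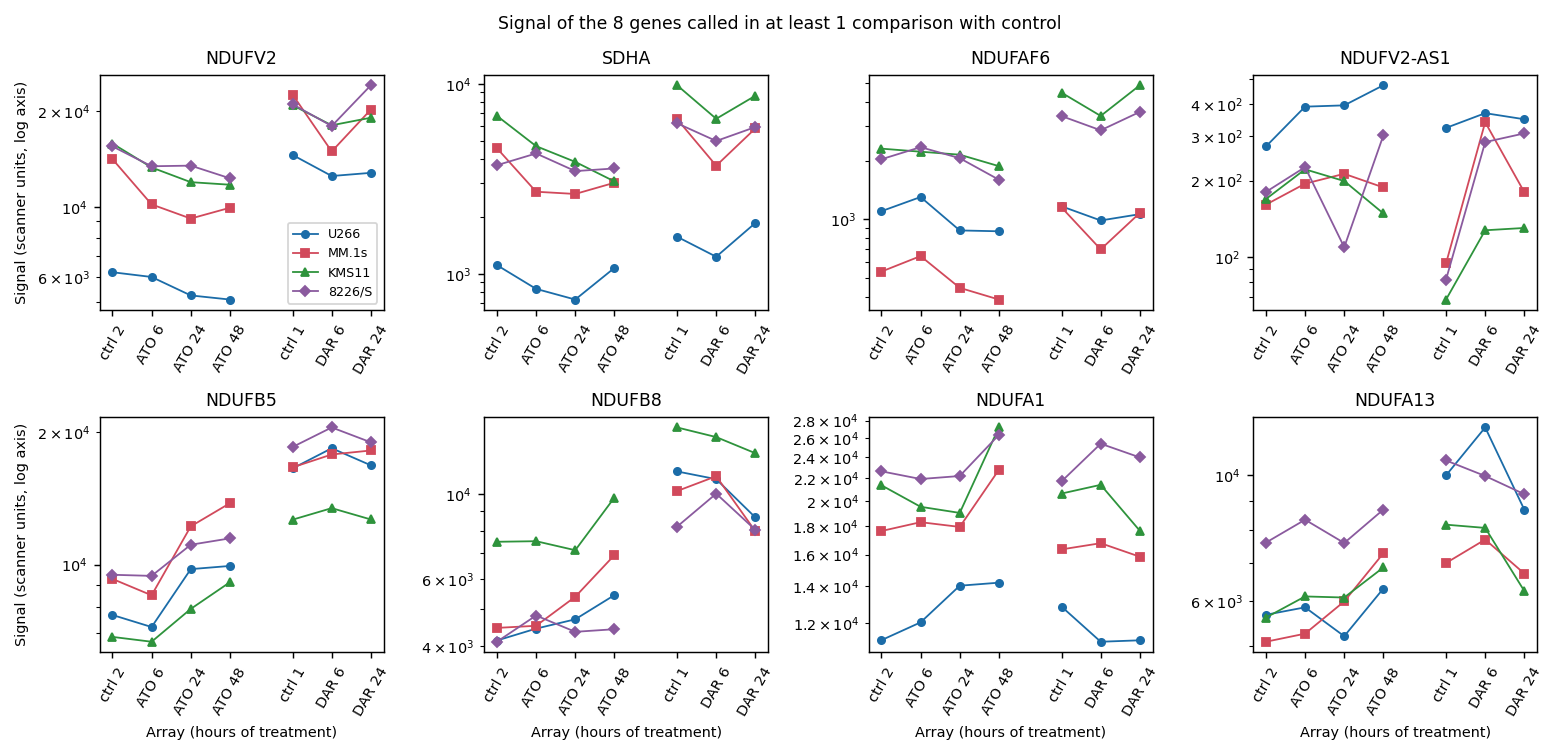
Signal (log axis, scanner units) of the 8 genes called in at least 1 comparison with control, on every array, with lines joining the arrays of a cell line within an array set; the x axis gives the control number or the compound and its hours. NDUFV2 lies below its control on all 12 ATO arrays, NDUFB5 rises after 6 h of ATO to 9119 to 13793 at 48 h, and SDHA falls in KMS11 from 6776 to 3063.

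The change moved with time under ATO for 4 genes, tested as the 48 h change minus the 6 h change. NDUFB5 (0.47 ± 0.074, adjusted p = 0.000779), NDUFA8 (0.42 ± 0.099, 0.0184) and NDUFA1 (0.32 ± 0.086, 0.0330) were higher at 48 h, 3 of 47 where 1.79% of all genes were. NDUFAF6 was lower by 0.51 ± 0.111 (0.0102), 1 of 47 where 2.12% were. NDUFA8, a subunit folded in the intermembrane space, was called in no comparison with control. Its signal at 6 and 48 h was 2422 and 3468 in U266, 1404 and 2231 in MM.1s, 1982 and 2499 in KMS11, and 2442 and 2734 in 8226/S, with controls between. All 4 lines moved the same way for each of the 4 genes. Leaving out U266, MM.1s or KMS11 left 1 gene called, and leaving out 8226/S left 4.

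At 6 h of DAR 4 genes changed. SDHA, NDUFAF6 and NDUFV2 fell, 3 of 47 where 6.34% of all genes did, and NDUFV2-AS1 rose, 1 of 47 where 6.85% did. Of the 36 subunits 0 rose. The median was -0.067 against 0.020 over all genes. SDHA fell by 0.51 ± 0.149, to 0.702 of control (adjusted p = 0.0227). Its signal in control 1 and at 6 and 24 h was 1567, 1230 and 1851 in U266, 6514, 3704 and 5820 in MM.1s, 9817, 6539 and 8646 in KMS11, and 6194, 4997 and 5917 in 8226/S. All 4 lines were lower at 6 h. At 24 h the mean change was -0.043, made of 0.24 in U266 and values of -0.066 to -0.18 in the other 3 lines. NDUFAF6 fell by 0.39 ± 0.111 at 6 h (adjusted p = 0.0200), from 1165 to 985 in U266, 1150 to 700 in MM.1s, 4460 to 3389 in KMS11 and 3383 to 2860 in 8226/S. At 24 h its mean change was -0.0063. Its dimmer probe set gave -0.43 at 6 h.

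NDUFV2 fell by 0.31 ± 0.089 at 6 h of DAR (adjusted p = 0.0202). Its signal in control 1 and at 6 and 24 h was 14557, 12495 and 12787 in U266, and 22536, 14931 and 20226 in MM.1s. In KMS11 it was 20870, 18045 and 19064, and in 8226/S it was 21018, 17950 and 24118. MM.1s fell most, by 0.59, while the other lines lay together at -0.21 to -0.23. At 24 h the mean change was -0.069, with 8226/S above its control.

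NDUFV2-AS1 is a non-coding gene whose start lies on the - strand of chromosome 18, 34021 bases downstream of the start of NDUFV2 on the + strand. It rose by 0.98 ± 0.259 at 6 h of DAR (adjusted p = 0.0122), on a dim probe set. From control 1 to 6 and 24 h it read 322, 368 and 348 in U266, 95, 339 and 180 in MM.1s, 68, 128 and 130 in KMS11, and 82, 283 and 307 in 8226/S. U266 started above the other lines and changed by 0.18, while MM.1s changed by 1.58 and 8226/S rose to a similar extent. A second probe set gave 1.28 at 6 h and 1.45 at 24 h, where the first gave 0.79 (adjusted p = 0.149).

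Other large values at 6 h of DAR did not pass: NDUFAF8 at -0.40 (adjusted p = 0.0636), NDUFS3, a core subunit near the ubiquinone site, at -0.31 (0.0590), and NDUFAF4 at -0.31 (0.224). On the positive side were NDUFAF7 at 0.18, NDUFS7 at 0.16, NDUFB5 at 0.12 and NDUFA6 at 0.11, with adjusted p-values from 0.325 to 0.463. SDHC and SDHD stood at 0.053 and -0.11, and NDUFS1 and NDUFV1 at -0.12 and 0.010. The 2 dimmer probe sets of NDUFAF7 read -0.49, opposite to the one used. Without MM.1s the adjusted p was 0.182 for SDHA, 0.182 for NDUFAF6, 0.193 for NDUFV2 and 0.143 for NDUFV2-AS1. Without KMS11 it was 0.0756, 0.109 and 0.0762 for the 3 that fell. Without 8226/S, whose array stands apart in its median, SDHA (0.0347) and NDUFV2 (0.0471) were still called, and NDUFAF6 (0.0558) and NDUFV2-AS1 (0.0584) were not. Over all genes, 1057 were called higher and 979 lower with 4 lines. Without MM.1s these were 630 and 488, without KMS11 592 and 502, and without 8226/S 780 and 654. With controls pooled, the changes were -0.23 for SDHA, -0.039 for NDUFAF6, 0.029 for NDUFV2 and 0.69 for NDUFV2-AS1, with 0 of the 4 called.

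At 24 h of DAR 0 of 47 genes were called by limma, where 0.492% of all genes were called higher and 0.130% lower. An unadjusted p under 0.05 was reached by 12, and by 2280 of all 15437 genes. Of the 47, 39 had a negative mean, as did 7281 of all genes, with a median of -0.085 against 0.020 over all genes, and 14 were lower in 4 of 4 lines, as were 10.6% of all genes. The direction turned with the 2 controls of each line pooled, where 9 of 47 means were negative and the median was 0.22 against -0.079 over all genes. Pooled changes carry part of the difference of control 2 from control 1, a median of -0.59 for these genes. The turn therefore says nothing further about treatment. With probe sets averaged, 31 of 47 were negative. By role, means were negative for 12 of 13 NDUFA and NDUFAB subunits, 10 of 11 NDUFB subunits, 5 of 5 core subunits, 3 of 3 complex II subunits and 7 of 8 assembly factors. They were negative for 1 of 3 other NDUFS and NDUFV subunits, 0 of 1 NDUFC subunit and 1 of 3 non-coding neighbours. The median per line was -0.062 in U266, -0.075 in MM.1s, -0.17 in KMS11 and -0.060 in 8226/S. The lowest values were NDUFAF8 at -0.46 (adjusted p = 0.127), NDUFS7 at -0.37 (0.121), NDUFS3 at -0.36 (0.117), NDUFB7 at -0.33 (0.176) and NDUFAF5 at -0.32 (0.325). NDUFS7, which holds the last iron-sulfur cluster before ubiquinone, changed by -0.15 in U266, -0.22 in MM.1s, -0.37 in KMS11 and -0.73 in 8226/S. NDUFS3 read 6324 and 6058 in control 1 and at 24 h of U266, 5453 and 5045 in MM.1s, 6324 and 4215 in KMS11, and 5636 and 3488 in 8226/S, so its lower values came mainly from the last pair of lines. NDUFV1 stood at -0.24, NDUFS1 at -0.019, SDHC at -0.020 and SDHD at -0.066. NDUFV2-AS1 (0.79), NDUFV1-DT (0.19), NDUFAF4 (0.13), NDUFA6 (0.097) and NDUFV3 (0.094) had the largest positive values. A second, dimmer probe set of NDUFA6 gave -0.30. NDUFV1-DT is near the floor and moved both ways. In control 1 and at 24 h it read 55.4 and 11.5 in U266 and 15.8 and 57.5 in MM.1s. The pairs were 10.6 and 104 in KMS11 and 102.6 and 42.7 in 8226/S.

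**Figure D4:**
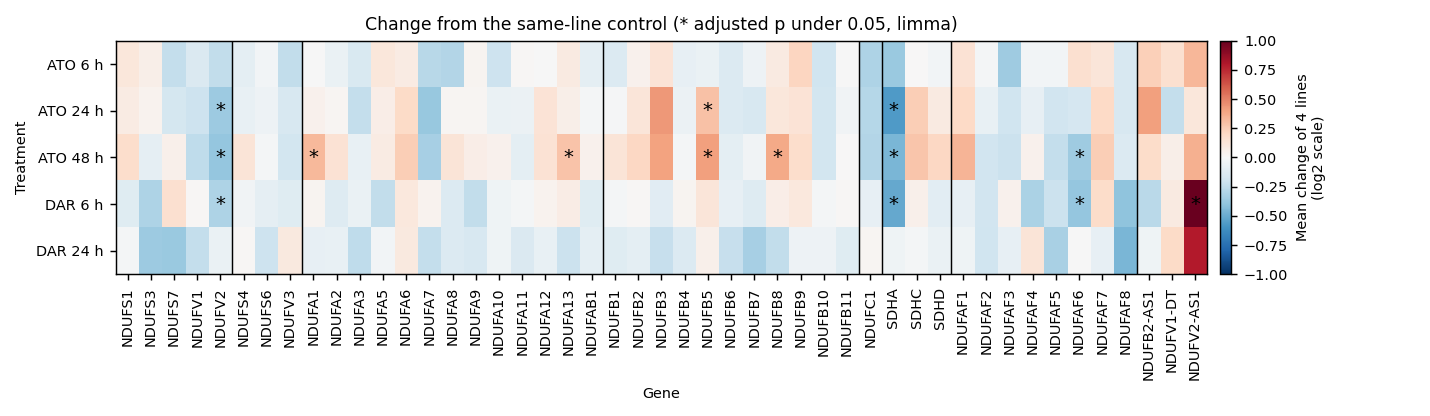
Mean change over 4 lines in log2(signal + 29) for the 47 genes (columns, grouped by role) in the 5 comparisons with the control of the same array set (rows); blue is lower, red is higher, and asterisks mark an adjusted p under 0.05. SDHA is blue in the ATO rows (-0.37 to -0.57) and at 6 h of DAR (-0.51) and near 0 at 24 h of DAR, and the asterisks of genes that rose under ATO are those of NDUFB5, NDUFB8, NDUFA1 and NDUFA13.

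The change under DAR was then set against the change under ATO at the same hours, for each of the 47 genes. Doses are the same in 8226/S only. No gene differed at an adjusted p under 0.05, at 6 h (2.21% of all genes called) or at 24 h (0.246%), and 5 and 8 of the 47 had an unadjusted p under 0.05, as did 2421 and 1648 of all 15437 genes. At 24 h, DAR minus ATO was 0.53 for SDHA (95% interval 0.091 to 0.961, adjusted p = 0.376). It was 0.30 for NDUFV2 (0.037 to 0.558, 0.408), -0.25 for NDUFB5 (-0.463 to -0.032, 0.406) and -0.66 for NDUFB3 (-1.09 to -0.231, 0.231). These intervals exclude 0 for each gene alone, but the p-values missed the threshold after adjustment over all genes. At 6 h, NDUFAF6 came nearest, at -0.55 (-0.876 to -0.225, adjusted p = 0.0657), with a mean of 0.16 under ATO and -0.39 under DAR. SDHA and NDUFV2 at 6 h differed by -0.14 (-0.576 to 0.294) and -0.068 (-0.329 to 0.193). The sets differ between compounds, so the compound and the array set cannot be told apart.

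Whether the ATO change differs between lines was tested over the 3 times together. No line has replicate arrays at a time, so the 3 times stood in for replicates. The 3 changes of a line also share the same untreated array. The p-values of this test therefore do not rest on replicate cultures. Of the 47 genes 0 were called, where 0.110% of all genes were. SDHA, whose lines look unlike, had an unadjusted p of 0.0921 and an adjusted p of 0.663. NDUFB3, with its high value in MM.1s, had an unadjusted p of 0.0221 and an adjusted p of 0.472.

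With the 2 controls of each line pooled in place of the control of the same set, the counts turned. A pooled change is measured from the mean of both controls of a line, so it carries part of the control difference. Under ATO 0 of 47 genes were called higher and 10 lower at 6 h (4.15% and 3.97% of all genes), 0 and 7 at 24 h (4.09% and 3.32%), and 1 and 12 at 48 h (9.35% and 7.32%). Under DAR 5 were higher and 0 lower at 6 h (7.22% and 7.07%), and 0 and 0 at 24 h (1.59% each way). DAR minus ATO then called 31 genes at 6 h (32.7% of all genes) and 30 at 24 h (35.3%). ATO at 48 h minus 6 h called 0 (0.369%), although its estimates were the same as before (0.47 for NDUFB5, adjusted p = 0.501 against 0.000779). The pooled changes of NDUFV2 and SDHA under ATO were negative at each time, from -0.59 to -0.73 and from -0.65 to -0.85. Both genes were lower in control 2 than in control 1, by a difference of -0.68 for NDUFV2 and -0.56 for SDHA. Pooling alone therefore moves their ATO changes down, and these signs say nothing further about treatment.

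Neighbouring pathways gave mostly single genes. Of 12 tested genes of iron-sulfur cluster assembly, which supplies the cofactors of both complexes, 2 rose at 6 h of ATO, 1 at 24 h and 3 at 48 h, and 0 fell. Of all genes, 3.78%, 2.73% and 6.35% were called higher at 6, 24 and 48 h. ISCA1, a late-acting carrier of clusters, rose by 0.42, 0.35 and 0.35 at these times. HSPA9, the mitochondrial chaperone that assists cluster transfer, rose by 0.55 at 6 h and 0.40 at 48 h. ISCU, the scaffold on which clusters are built, rose by 0.64 at 48 h (adjusted p = 0.0128). The medians of the list were 0.15, 0.13 and 0.22, where those of all genes were near 0, 0.024 and 0.056. At 6 h of DAR 1 of the 12 fell, GLRX5, a cluster carrier, by 0.60 (adjusted p = 0.0064), with a list median of -0.093. Of all genes 6.34% were called lower there. With controls pooled, ISCU changed by 0.24, ISCA1 by 0.21 to 0.28 and GLRX5 by 0.11, each not called.

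Of 11 other assembly factors, TMEM70 rose by 0.47 at 6 h of ATO (-0.14 with controls pooled), and TMEM126B by 0.39 at 24 h and 0.36 at 48 h. SDHAF3, an assembly factor of complex II, fell by 0.82 ± 0.241 at 48 h of ATO (adjusted p = 0.0278), and FOXRED1 by 0.55 at 6 h of DAR. Of 9 regulators of mitochondrial biogenesis, 3 fell at 6 h of DAR: the coactivator PPARGC1B by 0.70, and TFB2M by 0.69 and TFAM by 0.45, which transcribe and package mitochondrial DNA. Of all genes 6.34% were called lower at 6 h of DAR. In the other 4 comparisons 0 of the 9 were called. The shares of all genes called higher at 6, 24 and 48 h of ATO were 3.78%, 2.73% and 6.35%. Those called lower were 2.64%, 2.27% and 5.38%, and 0.130% at 24 h of DAR. In the later complexes single genes changed. UQCRC1 of complex III fell by 0.50 at 6 h of ATO, 1 of 7. COX5B of complex IV rose by 0.34 at 48 h, 1 of 10. In complex V, ATP5F1D fell by 0.59 at 24 h and 0.70 at 48 h of ATO, and ATP5MC1 by 0.63 at 24 h of DAR, 1 of 14 at each of these times. In the citric acid cycle, DLD rose by 0.44 at 6 h and 0.48 at 48 h of ATO, MDH2 fell by 0.39 at 24 h, and SUCLA2 and DLST fell by 0.46 and 0.42 at 48 h, of 11 tested.

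Plasma cell markers moved over the same arrays. Of 7, 3 fell at 6 h of ATO, 5 at 24 h and 6 at 48 h, with medians of -0.69, -0.93 and -0.89, and 2 fell at 6 h and 0 at 24 h of DAR. Of all genes, 2.64%, 2.27% and 5.38% were called lower at these times of ATO. At 6 and 24 h of DAR the shares were 6.34% and 0.130%. Their summed signal ran from 36861 to 88582 in control 2, 27629 to 59363 at 6 h, 21741 to 39523 at 24 h and 21514 to 44778 at 48 h of ATO. In control 1 it ran from 36994 to 93584, at 6 h of DAR from 33525 to 74364 and at 24 h from 34403 to 81621. Of 5 tested markers of other blood cells 0 changed in any of the 5 comparisons. The part of these shifts in the changes above was not tested.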

How the data were processed

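Total RNA from each culture, purified on RNeasy columns and labelled as biotinylated cRNA per the labels' protocols, was measured on Affymetrix HG-U133 Plus 2.0 arrays. The deposited table holds intensity values that the authors made with GCOS, per the submitters' processing notes, with the version not given in the sources used here. The authors scaled each array to a trimmed mean near 500, as the values show. Of 54675 probe sets, 41097 carry 1 symbol, 1801 several and 11777 none in the platform table, and 41043 were updated through Entrez identifiers to RefSeq names. The brightest probe set stood for each of 19775 genes.

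Values were taken as log2(intensity + 29). Genes whose signal exceeded the 50th percentile of the array on 4 or more of 28 arrays were tested with limma 3.58.1 (lmFit and eBayes with trend, R 4.3.3), with 8 baselines (line and control number) and 5 treatment effects, 15 residual degrees of freedom, and Benjamini-Hochberg adjustment over 15437 genes. Calls are at an adjusted p under 0.05. Arrays of the same line deviated together from their group means (correlation 0.737 on average, lowest 0.600), so the lines pair the arrays. No array was a copy of another (highest correlation 0.972). The number of arrays limits precision.

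Members and gene lists were chosen with earlier results of these data known. Named are core, SDH and called members, the 5 largest changes each way per comparison, and the called genes of the other lists. Alternatives were pooled controls, other offsets, scalings, filters and probe sets, arrays of 1 comparison alone, and each line left out. Promoters are RefSeq sequences, and 4 members had none.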

Additional observations from a re-analysis of the deposited data

Results flagged for a closer look

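These 7 values stood out. In groups of 4, 1 line lay far from the other 3 for 3 changes, by a test that chance meets in about 1 of 20 groups. The number of groups screened is not given here, so these 3 may be no more than chance gives. NDUFA1 at 48 h of ATO changed by 0.22 in 8226/S and by 0.35 to 0.37 in the other lines. NDUFV2 at 6 h of DAR changed by -0.59 in MM.1s and by -0.21 to -0.23 in the others. The median of the 47 genes at 24 h of DAR was -0.17 in KMS11 and -0.060 to -0.075 in the others. In 4 genes the change at 48 h of ATO differed from that at 6 h by the test of the difference itself. These are the 4 genes already called above: 0.32 for NDUFA1, 0.42 for NDUFA8, 0.47 for NDUFB5 and -0.51 for NDUFAF6.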

How the results depend on the processing

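Of 196 counts of called members under the alternatives, 151 lay within 1.5 times the reported count. Pooling the 2 controls of a line, which drops the replicate block of line and control number, changed the calls most, and the control sets differ by -0.59 in the median member. It gave 10 members lower at 6 h of ATO (0 reported), 0 higher and 7 lower at 24 h (1 and 2 reported), 1 higher and 12 lower at 48 h (4 and 3), 5 higher and 0 lower at 6 h of DAR (1 and 3), 31 and 30 for DAR minus ATO at 6 and 24 h (0 and 0), and 0 for ATO at 48 h minus 6 h (4). It reversed the sign of NDUFB5 at 24 h (-0.18) and 48 h (-0.067) and NDUFB8 at 48 h (-0.20) of ATO, and of NDUFV2 at 6 h of DAR (0.029). Quantile normalization gave 2 lower at 6 h of ATO and 9 higher at 48 h. Median centring gave 0 higher at 24 h and 1 at 48 h of ATO, 5 lower at 6 h of DAR, and 2 for ATO at 48 h minus 6 h. The filter on 14 arrays and the mean of probe sets each gave 1 lower at 6 h of ATO, and without _x_at probe sets, which leaves SDHA out, 1 was lower at 24 h. Offset 100 and the mean of probe sets each gave 1 higher at 24 h of DAR. Arrays of the comparison alone gave 0 higher and 1 lower at 24 h of ATO, 1 lower at 48 h and 1 lower at 6 h of DAR. Leaving out each line gave 0 to 1 lower at 6 h of ATO, 0 to 1 higher and 0 to 2 lower at 24 h, 1 to 5 higher and 0 to 3 lower at 48 h, 0 to 1 higher and 0 to 3 lower at 6 h of DAR, 0 to 1 lower at 24 h, and 1 to 4 for ATO at 48 h minus 6 h. With pooled controls the changes themselves shift by design. They are then measured from the mean of both controls of a line. Each therefore carries part of the gene's difference of control 2 from control 1, such as -0.95 for NDUFB5 and -0.68 for NDUFV2. The sign reversals listed above say nothing further about treatment. The cause of the other shifts was not tested. All genes divided into 1057 higher and 979 lower at 6 h of DAR but 692 and 1154 with median centring, and 76 and 20 at 24 h but 41 and 32. The number of arrays limits precision: the smallest called change with control among members was 0.29.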
